A study of Mus musculus with 15 samples.

Results

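The genes that separated the thymus of NOD.LCMV from that of NOD.Ln82-LCMV mice were examined 2 h after the peptide gp33. The comparison took the 3 arrays labelled NOD.LCMV thymus with gp33 and the 5 labelled NOD.Ln82-LCMV thymus with gp33, 8 of 15 arrays in all. All mice were 5-week-old females, and each had 0.5 µg of peptide given into a vein. The other 7 arrays came from mice given a control peptide that binds the same class I molecule, Db (NOD.LCMV, n = 3; NOD.Ln82-LCMV, n = 4). They share no array with the gp33 comparison and show which differences were there without gp33. The series text calls the mice of a group biological replicates. Precision is set by how many arrays there are. The labels name the strains but not the contents of the Ln82 segment, the element behind the LCMV suffix, or any processing batch. If a processing batch went along with strain, the effects of each cannot be told apart.

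NOD mice develop autoimmune diabetes, and part of that trait is poor removal of self-reactive T cells in the thymus. Thymocytes whose receptor binds a presented peptide strongly are signalled to die. This negative selection runs through calcium and NFAT, MAP kinases with AP-1 and the Egr and Nr4a factors, and NF-κB. gp33 is a viral glycoprotein peptide presented by Db to CD8 T cells. Nfkbid is named in the series title, as an Idd7 gene tied to this deletion, so the comparison asks how far the strains differ once the antigen has been given.

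Values are log2 signals of 1 probe set per gene, and each difference, with its standard error, is taken as NOD.LCMV minus NOD.Ln82-LCMV. A gene was called when limma's adjusted p, over all 19938 genes, was under 0.05. Fold intervals are 95% intervals from the same fit. Arrays of the same group correlated at 0.9904 to 0.9974 across probe sets in NOD.Ln82-LCMV with gp33 and at 0.9945 to 0.9964 in NOD.LCMV with gp33. The labelled tissue held on all 8 arrays: the thymocyte genes Cd4 (11.52 to 12.44), Cd8a (11.88 to 12.53) and Rag1 (10.92 to 12.03) were bright, and the thymic epithelial factor Foxn1 lay between 8.20 and 9.03.

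A single control array stood apart from its label. NOD.Ln82-LCMV control replicate 1 had Cd226, an adhesion receptor of T and natural killer cells, at 10.10, where the other 3 arrays of its group had 8.41 to 8.64 and NOD.LCMV control arrays 10.05 to 10.18. Its value for the variable segment Trbv1 was 10.00, against 12.54 to 12.66 in its group and 8.50 to 9.99 in NOD.LCMV. Kcnma1, a potassium channel gene, was in between, at 10.14 against 11.54 to 12.51 and 6.70 to 6.94, and Uprt, at 10.58, was within the range of its group. No gp33 array behaved this way for these genes. The gp33 differences do not use the level of NOD.Ln82-LCMV control replicate 1, but its spread enters their standard errors through the shared fit. With gp33 5386 genes were called when all arrays were used and 5574 without this array. Of the genes named here, 50 were called with the control peptide when all arrays were used and 68 without this array, with 21 gained, 3 lost (Alas2, Camp and Nlrc5) and 0 of the 50 reversed. Where a list count printed below differs without this array, that count is given too.

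With gp33 the strains differed widely and unevenly. limma called 5386 of 19938 genes (27.0%), of which 2032 (10.2%) were higher and 3354 (16.8%) lower in NOD.LCMV. Calls were therefore more often lower than higher, but the large differences were mostly higher. Of the higher genes 165 differed at least 2-fold and 33 at least 4-fold, while of the lower genes 42 and 2 did so. Most calls were small: the median called gene was 1.24-fold higher or 1.22-fold lower. The median over all genes was −0.017. The control peptide comparison called 10.3% of genes (4.77% higher, 5.54% lower), and 3 higher and 13 lower genes reached 2-fold. Counting instead genes whose arrays did not overlap between the strains, 10.6% were higher and 16.3% lower with gp33, and 10.3% and 9.36% with the control peptide.

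**Figure D1:**
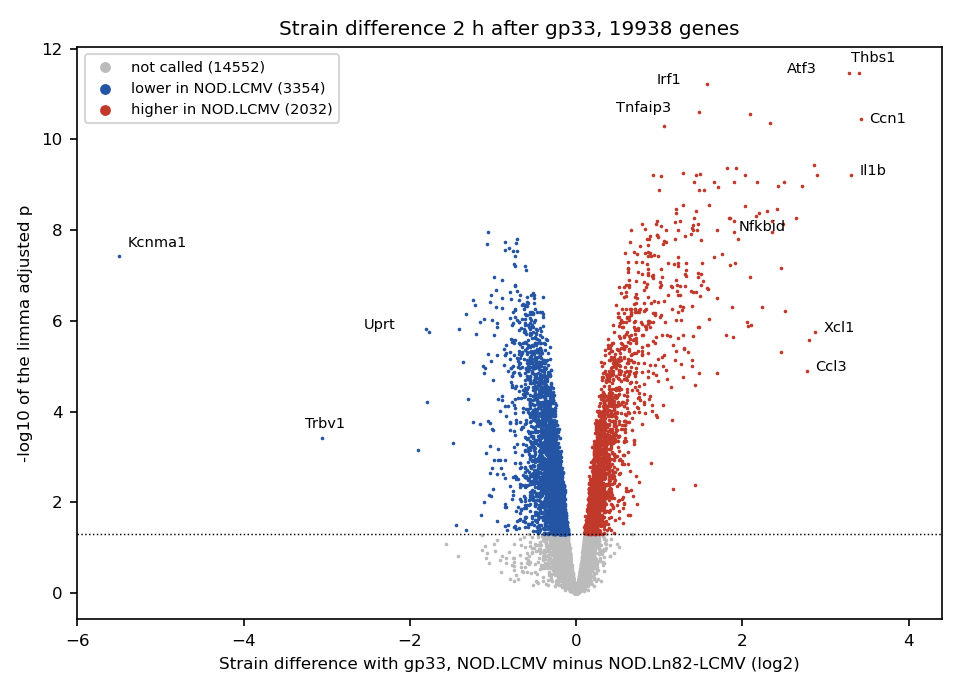
Each point is a gene; the x axis is the strain difference with gp33 (log2, NOD.LCMV over NOD.Ln82-LCMV); the y axis is −log10 of limma's adjusted p, with the dotted line at 0.05. The 165 genes at least 2-fold higher form the right arm, and Kcnma1 and Trbv1 lie alone on the far left.

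Nfkbid encodes IκBNS, a nuclear IκB protein that binds NF-κB dimers on chromatin and tunes their target genes. It lies on chromosome 7 and was read by probe set 10551891. Its level was 11.43, 11.53 and 11.44 in the NOD.LCMV arrays and 9.73, 9.44, 9.37, 9.61 and 9.91 in the NOD.Ln82-LCMV arrays, in the order of their replicate numbers. Every NOD.LCMV array was more than a log2 unit above every NOD.Ln82-LCMV array. The difference was 1.85 ± 0.10 log2, a fold of 3.62 with an interval of 3.12 to 4.20 (limma adjusted p = 5.26e-09). With the control peptide the difference was 0.15 ± 0.11 (adjusted p = 0.477), or 0.11 ± 0.11 without NOD.Ln82-LCMV control replicate 1. The strain differences under the peptides differed by 1.71 log2 (limma adjusted p = 2.16e-06).

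NF-κB dimers recognise κB sites, and several genes of the higher group are known NF-κB targets. Start-site windows of 4 genes of that group are shown with their κB matches in capitals. Those of Gbp5, Il6 and Tnfaip3 were picked from windows that hold a match, so they do not stand for the group. The windows come from RefSeq (GRCm38.p6) and run from 250 bases before to 50 bases after an annotated start. Sites are counted from that start, and positions are those of a match's first base. Nfkbid has 3 annotated starts. Matches were found in the window at chr7:30422156-30422455 (plus strand), at −226 and −181, and a cyclic AMP response element lies at −51 in it. The other windows are Gbp5 (chr3:142496684-142496983, plus strand, match at −77), Il6 (chr5:30012864-30013163, plus strand, −44) and Tnfaip3 (chr10:19015361-19015660, minus strand, −125 and −12).
Nfkbid: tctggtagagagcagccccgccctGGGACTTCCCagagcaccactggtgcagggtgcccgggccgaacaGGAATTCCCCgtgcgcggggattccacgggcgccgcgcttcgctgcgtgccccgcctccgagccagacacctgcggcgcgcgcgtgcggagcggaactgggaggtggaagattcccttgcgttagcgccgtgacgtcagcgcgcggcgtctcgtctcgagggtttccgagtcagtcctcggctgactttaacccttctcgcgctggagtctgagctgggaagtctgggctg
Gbp5: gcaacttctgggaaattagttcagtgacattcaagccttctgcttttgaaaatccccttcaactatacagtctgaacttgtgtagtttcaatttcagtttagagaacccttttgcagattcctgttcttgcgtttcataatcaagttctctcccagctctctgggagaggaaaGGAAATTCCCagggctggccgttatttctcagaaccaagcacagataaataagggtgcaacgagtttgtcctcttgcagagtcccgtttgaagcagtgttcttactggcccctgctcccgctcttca
Il6: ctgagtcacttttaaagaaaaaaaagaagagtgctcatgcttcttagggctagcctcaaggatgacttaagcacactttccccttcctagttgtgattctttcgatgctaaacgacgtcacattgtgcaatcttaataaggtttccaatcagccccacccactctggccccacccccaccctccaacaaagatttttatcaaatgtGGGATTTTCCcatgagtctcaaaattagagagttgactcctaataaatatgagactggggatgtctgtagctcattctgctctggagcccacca
Tnfaip3: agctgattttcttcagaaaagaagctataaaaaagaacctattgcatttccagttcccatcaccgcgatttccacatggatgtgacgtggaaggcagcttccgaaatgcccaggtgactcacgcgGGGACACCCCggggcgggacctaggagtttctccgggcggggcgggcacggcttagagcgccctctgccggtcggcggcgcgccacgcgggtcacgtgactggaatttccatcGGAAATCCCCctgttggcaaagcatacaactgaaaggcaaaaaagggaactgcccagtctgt
The κB motif was a 10-base consensus searched on both strands. At least 1 match was in 17.9% of the 117 genes that were called, at least 2-fold higher and listed with a window, in 5.74% of 15614 measured genes with a window and in 4.35% of 23 genes at least 2-fold lower. The AP-1 motif TGANTCA was in 16.2%, 8.08% and 8.70% of the same sets. The cyclic AMP response element was in 2.56%, 2.72% and 4.35%, and the Egr motif in 2.56%, 1.06% and 0%. Overlapping matches counted once per gene, and genes with several windows had more chances to match. These shares are descriptions of letters, not of binding. The windows of Ccn1, Il1b, Atf3 and Irf4, the highest genes by the rule that have a window, held none of the motifs searched.

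Genes of the NF-κB system were higher in NOD.LCMV almost throughout. Of 12 measured genes of NF-κB subunits, IκB proteins and IκB kinases, 11 were called higher and 1 lower, with a median difference of 1.00. Among the subunits, Rel, the c-Rel gene, was at 12.23, 12.36 and 12.23 against 10.71 to 11.04 (1.42 ± 0.08), and Relb at 10.03 to 10.24 against 8.55 to 8.83 (1.44 ± 0.08). Neither group of arrays overlapped the other in these genes. Nfkb2, the p100 and p52 gene, differed by 1.38 ± 0.11 and Rela, the p65 gene, by 0.39 ± 0.05. Among the inhibitors and nuclear IκB proteins, Bcl3 differed by 1.52 ± 0.11, Nfkbiz by 1.02 ± 0.06, Nfkbia by 0.97 ± 0.06, Nfkbie by 0.86 ± 0.06 and Nfkbib by 0.48 ± 0.06. The kinase gene Ikbkb was 0.21 ± 0.05 higher. The member called lower, Ikbkg, the NEMO scaffold, differed by −0.20 ± 0.07 (limma adjusted p = 0.043), its groups overlapped, and it lost its call in 12 of 15 leave-one-out fits. With the control peptide 0 of the 12 were called in limma, with or without NOD.Ln82-LCMV control replicate 1, and 2 had an unadjusted p under 0.05. Nfkbid, Relb, Rel and, by the rule for chromosome 7, Bcl3 were named by the rule for named genes. The other members here, like any gene below that the rule does not name, were named after their values had been seen.

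Of 14 NF-κB feedback and survival targets, 13 were called higher and 0 lower, with a median of 0.79 (1 higher and 1 lower with the control peptide, or 2 and 1 without NOD.Ln82-LCMV control replicate 1). Tnfaip3, the A20 deubiquitinase that restrains NF-κB, was at 11.69, 11.68 and 11.59 against 10.11 to 10.26, a 2.80-fold difference with an interval of 2.61 to 3.00 (1.48 ± 0.05, limma adjusted p = 2.47e-11). Its arrays varied little within each strain. Icam1, an adhesion molecule, was 1.44 ± 0.06 higher and Tnfaip2, a TNF-induced gene, 1.90 ± 0.09. The inhibitor of apoptosis Birc3 (0.97 ± 0.05) and the adaptor Traf1 (0.95 ± 0.08) were higher too. Cyld, the deubiquitinase that opposes NF-κB signalling, was the member not called (0.23 ± 0.09).

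Immediate early transcription factors, which antigen receptors and stress induce within minutes to hours, were higher in 23 of 27 measured members and lower in 0, with a median of 0.89. Atf3, a stress-induced ATF factor, was at 11.30, 11.65 and 11.37 against 8.36, 7.99, 8.12, 8.09 and 8.23. The lowest NOD.LCMV array was far above the highest NOD.Ln82-LCMV array. The difference was 9.73-fold, with an interval of 8.60 to 11 (3.28 ± 0.08, limma adjusted p = 3.42e-12). The orphan nuclear receptors of the Nr4a family, reporters of strong receptor signals, all differed. Nr4a2 was at 11.05, 11.34 and 10.74 against 8.17 to 8.73 (2.64 ± 0.14). Nr4a3 was at 12.04, 12.62 and 12.12 against 9.42 to 10.02 (2.51 ± 0.22), and Nr4a1 differed by 1.43 ± 0.18. In each of the 3 the groups did not overlap. Egr2, which takes part in thymocyte selection, was 1.5 ± 0.11 higher and Egr1 0.74 ± 0.11, while Egr4 was not called (0.10 ± 0.08). Of the AP-1 genes, Fos (1.89 ± 0.19), Jun (1.81 ± 0.07), Fosl2 (1.84 ± 0.10) and Fosb (1.08 ± 0.13) were higher. Jun and Myc, a growth regulator that was 1.28 ± 0.07 higher, each had non-overlapping groups, with Myc at 12.26 to 12.40 against 10.95 to 11.14. Klf4, which restrains T-cell division, was not called (−0.07 ± 0.06). Under the control peptide 1 member was called higher and 1 lower, and 2 and 2 without NOD.Ln82-LCMV control replicate 1.

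**Figure D2:**
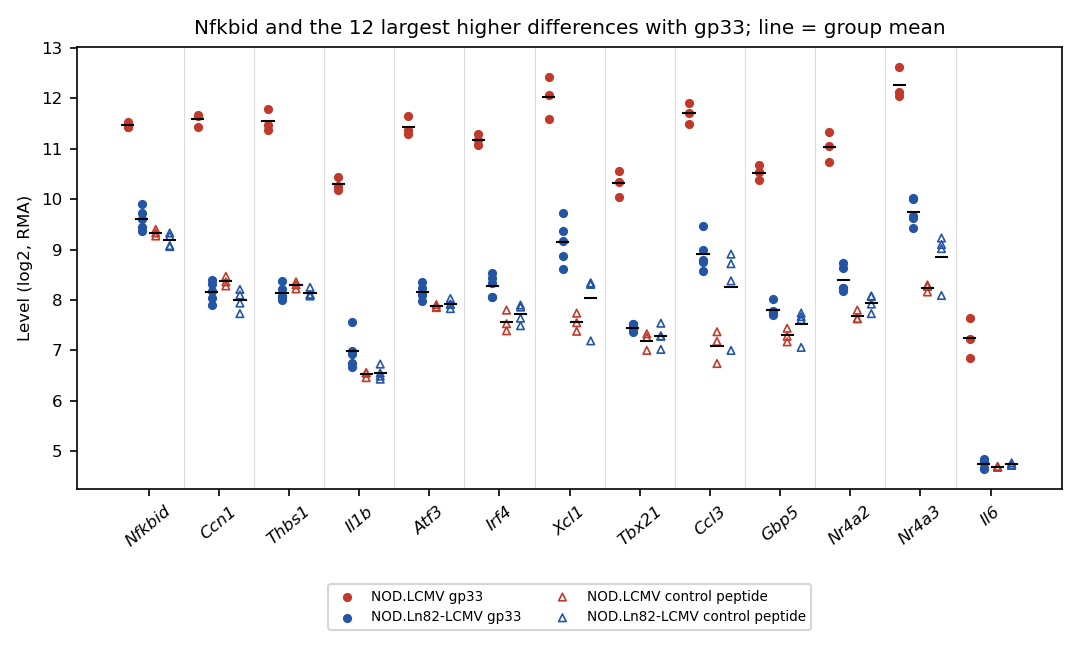
Log2 level of Nfkbid and the 12 highest genes by the rule, 1 point per array, filled circles with gp33 and open triangles with the control peptide, NOD.LCMV in red and NOD.Ln82-LCMV in blue; short lines are group means. In all 13 genes the 3 NOD.LCMV gp33 arrays lie above all other arrays.

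Transcription factors that set the fate of activated T cells were split between large and absent differences. Of 18 measured, 11 were called higher and 2 lower, with a median of 0.37. Irf4, which scales with receptor signal strength, was at 11.29, 11.17 and 11.08 against 8.54, 8.05, 8.05, 8.33 and 8.44, a 7.45-fold difference (2.90 ± 0.13, limma adjusted p = 5.96e-10). Tbx21, the T-bet gene of the type 1 programme, was at 10.56, 10.04 and 10.34 against 7.37 to 7.53 (2.86 ± 0.12). Irf1, an interferon-induced factor, was at 12.31, 12.21 and 12.16 against 10.59 to 10.74 (1.57 ± 0.04), and its other probe set differed by 0.65. The groups did not overlap in these 3 genes. Batf, an AP-1 partner of Irf4, was 1.41 ± 0.11 higher, and Prdm1, the Blimp-1 gene, 1.06 ± 0.07. The lineage factors Eomes (0.11 ± 0.07), Gata3 (0.07 ± 0.06) and Tox (0.02 ± 0.06) were not called. Id3, an inhibitor of E proteins that receptor signals regulate, was lower (−0.41 ± 0.10), as was Zbtb7b, the ThPOK gene of the CD4 lineage (−0.25 ± 0.07). Without NOD.LCMV gp33 replicate 2, or without replicate 3, 1 member was called lower.

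Transcripts of NFAT factors and calcineurin had a small median difference, and NFAT activity itself was not measured. Of 14 genes of NFAT factors and calcineurin, 4 were called higher and 2 lower, with a median of −0.01. Nfatc1, whose induced form is a product of receptor signalling, was 2.03-fold higher (1.02 ± 0.09). The tonicity factor Nfat5 (0.62 ± 0.07) and the calcineurin inhibitor Cabin1 (0.42 ± 0.05) were higher with gp33 and also with the control peptide (0.43 and 0.27). The calcineurin catalytic gene Ppp3cc differed by −0.40 ± 0.10 and Nfatc3 differed by −0.23 ± 0.07. The count of lower members was 1 without NOD.Ln82-LCMV gp33 replicate 4 or NOD.LCMV gp33 replicate 2.

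Surface receptors of activated T cells were higher in 18 of 23 members and lower in 2, with a median of 0.62. Cd69, an early activation marker that holds cells in tissue, was at 12.97, 12.80 and 12.99 against 11.27 to 11.54 (1.49 ± 0.06, limma adjusted p = 5.78e-10). Cd44, an adhesion receptor, was at 10.54, 10.08 and 10.38 against 8.76 to 9.03 (1.44 ± 0.11). Cd274, the PD-L1 gene, was at 11.60 to 11.76 against 10.58 to 10.84 (1.01 ± 0.08). Groups did not overlap in any of these. The interleukin-2 receptor chain Il2ra was 1.35 ± 0.14 higher, the 4-1BB gene Tnfrsf9 1.69 ± 0.20 and the T-cell activation gene Tagap 2.07 ± 0.19. Crtam, a receptor of activated CD8 T cells, was at 9.18 to 9.79 against 6.89 to 7.14 (2.41 ± 0.12). The costimulatory receptor Cd28 (0.06 ± 0.07) and the checkpoint receptor Pdcd1 (0.32 ± 0.17) were not called. Havcr2, the TIM-3 gene, was lower with gp33 (−0.72 ± 0.09) and with the control peptide (−0.61). With the control peptide 0 members of this list were called higher and 4 lower, and 3 and 7 without NOD.Ln82-LCMV control replicate 1.

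Feedback inhibitors of signalling differed unevenly. Of 17 MAP kinase inhibitors, 11 were higher and 1 lower, with a median of 0.39. Spry1, a Sprouty inhibitor of Ras signalling, was at 10.77, 10.89 and 10.46 against 8.27 to 8.46, a 5.02-fold difference (2.33 ± 0.08). Errfi1, an inhibitor of the EGF receptor, differed by 1.69 ± 0.14 and the phosphatase Dusp2 by 1.14 ± 0.09, whereas Dusp6 (0.02 ± 0.08), which acts on ERK, was not called and Dusp7 was lower (−0.43 ± 0.04). Of 21 inhibitors of cytokine, G-protein and receptor signals, 9 were higher and 2 lower, with a median of 0.06. The largest were Cish (1.71 ± 0.08) and Socs3 (1.39 ± 0.08), inhibitors of JAK-STAT signalling, and Rgs16 (1.57 ± 0.12), a brake on G-protein signals. In these 3 genes the groups did not overlap, but the other probe set of Socs3 differed by 0.25. Socs2, Socs4, Socs5 and Socs7 were not called, with differences from 0.04 to 0.11. In the list of 21 genes 1 member rather than 2 was called lower in 10 of 15 leave-one-out fits.

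Cytokine genes of T cells were among the largest differences, but not all of them differed. Of 19 measured, 13 were called higher and 0 lower, with a median of 0.44. At an unadjusted p under 0.05 in limma 1 member, Il21, was lower, and it was called lower in 3 of 15 leave-one-out fits. Xcl1, which attracts cross-presenting dendritic cells, was at 12.42, 11.60 and 12.06 against 9.73, 8.61, 9.17, 8.88 and 9.37 (2.87 ± 0.28, limma adjusted p = 1.78e-06). Ccl3, the chemokine MIP-1α, was at 11.91, 11.70 and 11.49 against 9.46, 8.57, 8.80, 8.76 and 8.99 (2.78 ± 0.33). Among NOD.Ln82-LCMV gp33 arrays, replicate 1 was the highest for both, and it stayed below every NOD.LCMV array. Ifng, the interferon-γ gene, was at 9.15, 9.53 and 8.78 against 6.65 to 7.04 (2.35 ± 0.13). Tnf was at 11.65, 11.39 and 11.41 against 8.89 to 9.45 (2.35 ± 0.14). Ccl4, a relative of Ccl3, differed by 1.90 ± 0.11. Il2 was higher by 0.44 ± 0.05, and the genes of the helper cytokines Il4 (0.06 ± 0.04), Il10 (0.02 ± 0.04), Il17a (−0.04 ± 0.06) and Il21 (−0.12 ± 0.04) were not called. Ifng and Ccl4 were dim in NOD.Ln82-LCMV, with means under 6.92, the limit of the dimmest 33.3% of genes. Their folds may be understated, since no background level was measured. The same holds for other genes with a group mean under that limit, such as Il6, Clec4e, Gzmb, Retnlg, Mmp8, Cd79a and Tlr3. It holds too for the microRNA genes named below, except Mir181b-1. Il4, Il10, Il17a and Il21, with Eomes above and Ankrd1 below, were under that limit in both strains with gp33. For these genes a missing call does not show that the levels were equal.

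Genes of interleukin-1, interleukin-6 and inflammatory chemokines formed the list with the largest median, 1.51: 15 of 17 were higher and 0 lower. Il1b was at 10.18, 10.27 and 10.44 against 7.56, 6.68, 6.92, 6.76 and 6.99, a 9.95-fold difference with an interval of 8.02 to 12.3 (3.31 ± 0.15). Il6 was at 6.85, 7.64 and 7.23 against 4.65 to 4.84 (2.50 ± 0.11), which is near the bottom of the scale in NOD.Ln82-LCMV. Il1a differed by 2.49 ± 0.14. Ccl2, which attracts monocytes, was at 10.21, 10.50 and 10.35 against 7.83 to 8.40 (2.30 ± 0.12). The interferon-γ-induced ligands of CXCR3 were higher too, Cxcl9 by 2.46 ± 0.17, Cxcl10 by 2.10 ± 0.20 and Cxcl11 by 1.69 ± 0.10. The groups did not overlap in any of these 7 genes. The decoy receptor gene Il1r2 (0.00 ± 0.11) and the interleukin-12 subunit Il12a (−0.17 ± 0.11) were not called. Some genes outside the lists, picked for their high values, can be expressed by activated myeloid cells. They were Acod1, the itaconate enzyme (2.03 ± 0.09), Clec4e, the Mincle receptor (2.20 ± 0.12), Ptgs2, the inducible cyclooxygenase (1.90 ± 0.11), and F3, tissue factor (2.16 ± 0.12). Which cells of the thymus held these transcripts was not tested, and of 15 macrophage markers 1 was higher and 6 lower.

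Interferon-related genes did not move as 1 group. All 6 measured interferon-induced GTPases were higher, with a median of 1.30, and 0 were called with the control peptide in limma (2 at an unadjusted p under 0.05, and 2 called lower without NOD.Ln82-LCMV control replicate 1). Gbp5, a guanylate-binding protein, was at 10.67, 10.53 and 10.38 against 8.02, 7.71, 7.78, 7.74 and 7.77 (2.72 ± 0.13). Gbp3 was 1.21 ± 0.09 and Iigp1 1.46 ± 0.14 higher, with no overlap of the groups. Of 17 type I interferon-stimulated genes, 2 were higher and 2 lower, with a median of −0.12. Stat2 was 0.30 ± 0.07 higher, Bst2, the tetherin gene, 0.55 lower (−0.55 ± 0.10), and Ddx58, the RIG-I gene, differed by −0.35 ± 0.08. Bst2 was also called lower with the control peptide (−0.45). NOD.LCMV gp33 replicate 1 had the highest mean of this list, 9.21, against 8.59 and 8.73 in the other two of its group and 8.86 to 9.11 in NOD.Ln82-LCMV. Without it 7 members were called lower, and 4 without NOD.Ln82-LCMV control replicate 1. In 4 leave-one-out fits 1 member was called higher. Class I antigen processing was split: Tap1, the peptide transporter (0.59 ± 0.07), and Nlrc5, a class I transactivator (0.47 ± 0.08, with 0.16 to 1.43 over its other probe sets), were among 5 of 14 genes higher, and Psmb10, an immunoproteasome subunit (−0.55 ± 0.05), among 4 lower (2 without NOD.LCMV gp33 replicate 2). With the control peptide 1 of the 14 was called higher and 4 lower, or 0 and 4 without NOD.Ln82-LCMV control replicate 1. Nlrc5 (0.29) and Psmb10 (−0.39) were among those called with all arrays.

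The 2 largest higher differences belonged to secreted matricellular proteins, which signal from the matrix to nearby cells. Ccn1 was at 11.44, 11.65 and 11.66 against 8.40, 8.17, 7.90, 8.03 and 8.31, a 10.7-fold difference with an interval of 9.04 to 12.7 (3.42 ± 0.11, limma adjusted p = 3.46e-11). Thbs1, thrombospondin 1, was at 11.37, 11.78 and 11.48 against 8.37, 8.08, 8.21, 8.06 and 8.0 (3.40 ± 0.09). The gap between the groups was far wider than the spread within either. Plaur, the urokinase receptor, differed by 1.46 ± 0.08. Of the 12 matricellular and SRF or YAP type genes measured, 7 were higher and 0 lower, with a median of 0.33. Known YAP targets differed unevenly: Ccn2 was 0.42 ± 0.10 higher, while Ankrd1 (0.14 ± 0.34) and Amotl2 (0.00 ± 0.07) were not called.

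Some granulocyte genes were higher. Of 15 markers, 7 were called higher and 0 lower (also 0 lower at an unadjusted p under 0.05 in limma), with a median of 0.30, and 2 higher with the control peptide. Retnlg, a granulocyte resistin-like gene, was at 7.35, 7.55 and 7.49 against 5.83 to 6.06 (1.54 ± 0.07). Mmp8, the neutrophil collagenase, was at 6.77, 6.87 and 7.19 against 5.43 to 5.66 (1.40 ± 0.08). Csf3r, the G-CSF receptor, was at 8.19, 7.86 and 8.03 against 6.82 to 7.03 (1.08 ± 0.07). The groups were apart in these 3, and in S100a9 (1.29 ± 0.16) and Cxcr2, a chemokine receptor of neutrophils (1.19 ± 0.13). Genes of granule precursors were not called, among them Elane (0.04 ± 0.08), Mpo (0.20 ± 0.16) and Camp (−0.04 ± 0.05). Over all 15 markers the mean level was 7.66, 7.70 and 7.96 in NOD.LCMV against 7.07 to 7.37. Whether these markers had a part in the higher Il1b, Clec4e and Il6 was not tested. In bulk tissue, more or fewer cells of a type and more or less RNA per cell cannot be told apart, here and in the cell type lists below.

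Genes that decide cell death differed in both directions, with both killers and protectors among the higher ones. Of 14 measured BCL2 family genes 5 were higher and 3 lower, with a median of −0.05. Over all genes 10.2% were called higher and 16.8% lower, and the share of lower BCL2 family genes was near the latter. Bcl2l11, the BIM gene that triggers thymocyte deletion, was at 11.74, 12.23 and 12.03 against 10.63 to 11 (1.22 ± 0.10, limma adjusted p = 2.65e-07). Bcl2l1, the protective BCL-XL gene, was at 10.84, 10.36 and 10.51 against 9.62 to 9.87 (0.79 ± 0.09). Bak1, an effector, was lower at 9.68 to 9.78 against 10.03 to 10.19 (−0.39 ± 0.04), and almost as much with the control peptide (−0.38). The groups were apart in all 3. Bmf, another BH3-only gene, was lower (−0.44 ± 0.12) but not without NOD.LCMV gp33 replicate 2. Of 14 death receptor, caspase and Gadd45 genes, 6 were higher and 5 lower. The stress genes Gadd45b (2.05 ± 0.19) and Gadd45g (1.1 ± 0.07) and the TRAIL receptor Tnfrsf10b (0.72 ± 0.05) were higher. The caspases Casp8 (−0.54 ± 0.06) and Casp6 (−0.65 ± 0.05) were lower, as they were with the control peptide (−0.31 and −0.22).

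Genes of the double-positive thymocyte stage were more often lower than higher, while those of the mature single-positive stage were not. In many double-positive genes 1 array was low. Of 17 double-positive thymocyte genes, 2 were higher and 9 lower, with a median of −0.25, and with the control peptide 3 were higher and 0 lower, or 5 and 1 without NOD.Ln82-LCMV control replicate 1. Dntt, which adds bases at receptor joints, was at 11.79, 11.31 and 11.64 against 11.98 to 12.24 (−0.51 ± 0.09). Cd7 was at 9.26, 8.28 and 8.81 against 9.48 to 10.02 (−0.99 ± 0.19), and Endou, a gene high at the double-positive stage, at 10.37, 9.59 and 10.01 against 10.58 to 10.78 (−0.67 ± 0.13). In these genes NOD.LCMV gp33 replicate 2 was the lowest array, and its mean over the list was 10.23, against 10.87 and 10.67 in its group and 10.67 to 11.03 in NOD.Ln82-LCMV. Without it 4 members were called lower, and 5 without NOD.Ln82-LCMV gp33 replicate 3. Without NOD.LCMV gp33 replicate 3, 1 member was called higher. The wider list of 11 thymocyte genes had 1 higher and 6 lower (3 without NOD.LCMV gp33 replicate 2), with Thy1 (−0.48 ± 0.05) and Cd4 (−0.53 ± 0.10) lower and the recombinase gene Rag1 not called (−0.07 ± 0.22). Of 16 mature single-positive genes 5 were higher and 3 lower, and the share of lower ones was near the 16.8% of all genes. Gimap4, a GTPase of mature T cells, was 0.79 ± 0.12 higher, and S1pr1, the egress receptor, was at 8.30 to 8.43 against 8.62 to 8.77 (−0.36 ± 0.06). Without NOD.LCMV gp33 replicate 1, 7 members were lower.

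The receptor complex and the genes next to it differed by little. Of 21 members 8 were higher and 3 lower, with a median of 0.07 (5 higher without NOD.LCMV gp33 replicate 1 and 1 lower without replicate 2). The kinase Fyn (0.49 ± 0.08), the phosphatase Ptprc, CD45 (0.34 ± 0.05), and the coreceptor-like Cd6 (0.48 ± 0.07) were higher. Fyn and Ptprc were also called higher with the control peptide (0.40 and 0.23), and Cd6 was not (0.02). There 5 of the 21 members were higher and 0 lower, or 6 and 0 without NOD.Ln82-LCMV control replicate 1. The CD3 chains Cd3e (0.07 ± 0.04), Cd3g (−0.07 ± 0.04) and Cd3d (−0.12 ± 0.07) were not called. Of 14 Notch pathway genes 6 were higher and 5 lower. The Notch coactivator Maml2 was 0.69 ± 0.08 higher, and was also called higher with the control peptide (0.43). The ligand Dll4, which thymic epithelium uses to drive T-lineage choice, was at 7.73 to 8.10 against 8.46 to 8.71 (−0.69 ± 0.08). The target Hey1 was at 8.07, 7.86 and 8.11 against 8.73 to 9.20 (−1.02 ± 0.11), and its difference with the control peptide was 0.01 ± 0.12.

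Cell cycle genes were lower by small amounts in 15 of 23 members and higher in 1, with a median of −0.21. Ccna2, cyclin A2, was at 12.08, 11.99 and 12.10 against 12.43 to 12.53 (−0.43 ± 0.05). Ccnb2, cyclin B2, was at 12.23 to 12.26 against 12.50 to 12.60 (−0.30 ± 0.04). The exception was Ccnd2, the cyclin D2 gene that growth signals induce, at 11.97, 11.60 and 11.75 against 10.31 to 10.42 (1.40 ± 0.08). In all 3 genes the groups were apart. Under the control peptide 9 of the 23 were lower, Ccna2 by −0.31 and Ccnb2 by −0.20. The proliferation marker Mki67 (−0.06 ± 0.04) and the helicase gene Mcm6 (−0.04 ± 0.04) were not called.

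Among markers of the other cell types of a thymus, few genes were called higher outside the granulocyte list. Of all genes 16.8% were called lower, a share that the counts for adipocytes (2 of 13) and fibroblasts (3 of 14) below are near. The B-cell list was the clearest, with 1 of 11 genes higher, 6 lower and a median of −0.65. Cd79a and Cd79b, the signalling chains of the B-cell receptor, were at 6.44 to 7.15 against 7.98 to 8.61 (−1.48 ± 0.26) and at 8.90 to 9.38 against 10.22 to 10.67 (−1.30 ± 0.18). The list's mean was 8.01, 7.66 and 7.70 in NOD.LCMV against 8.26 to 8.66. With the control peptide it ran from 7.50 to 8.24 against 8.32 to 8.54, apart from NOD.Ln82-LCMV control replicate 1 at 7.75. There 1 gene of the list was called lower, and 3 without that array, Cd79a among them (−0.92, limma adjusted p = 0.00925). Ms4a1, the CD20 gene, differed by −1.33 ± 0.46 (limma adjusted p = 0.0417). Its groups overlapped, and it lost its call in 8 of 15 leave-one-out fits. Pou2af1, a B-cell coactivator, was the exception, 0.62 ± 0.11 higher.

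Of 16 dendritic cell genes 1 was higher and 6 lower. Xcr1, the Xcl1 receptor of cross-presenting dendritic cells, was at 8.56, 8.67 and 8.72 against 9.31 to 9.60 (−0.80 ± 0.07), and Tlr3 and Clec9a of the same cells were lower too (−0.69 ± 0.07 and −0.42 ± 0.09). Itgax, the CD11c gene, was not called (0.05 ± 0.09). Ccl22, a chemokine of activated dendritic cells, was at 10.39 to 10.68 against 9.43 to 9.52 (1.03 ± 0.10). Without NOD.LCMV gp33 replicate 2, 2 dendritic cell genes were higher. In macrophages 1 of 15 genes was higher and 6 lower, among them Mertk, a receptor for dying cells (−0.77 ± 0.10), and C1qc, a complement chain (−0.52 ± 0.11). C1qc was also called lower with the control peptide (−0.49), and Mertk was not (−0.14). In thymic epithelium 1 of 16 was higher and 6 lower. The single higher gene of the macrophage list and that of the epithelial list lost their calls in 4 leave-one-out fits each. Psmb11, the thymoproteasome subunit of the cortex, was at 7.93 to 8.02 against 8.24 to 8.98 (−0.75 ± 0.12), and Foxn1 at 8.20 to 8.62 against 8.78 to 9.03 (−0.54 ± 0.09). Under the control peptide these 2 genes differed by 0.00 and −0.02.

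Of 12 natural killer and γδ T-cell genes 1 was higher and 5 lower. The higher gene was Gzmb, a granzyme that activated CD8 T cells also make, at 7.90, 8.34 and 7.68 against 5.93 to 6.38 (1.85 ± 0.13). Gzma (−0.58 ± 0.11) and Fcer1g (−0.94 ± 0.13) were lower, as with the control peptide (−0.47 and −0.91). In endothelium 0 of 14 genes were higher and 6 lower (3 without NOD.LCMV gp33 replicate 1 or replicate 3). Pecam1 was −0.28 ± 0.05 with gp33 and 0.22 ± 0.05 with the control peptide. In fibroblasts 1 of 14 was higher (0 in 11 leave-one-out fits) and 3 lower (1 without NOD.LCMV gp33 replicate 2), with Pdgfrb at −0.33 ± 0.06. In adipocytes 0 of 13 were higher and 2 lower, with 6 lower without NOD.Ln82-LCMV gp33 replicate 1 and 1 lower in 8 other leave-one-out fits. The mean over that list was 9.12 to 9.51 in NOD.LCMV and 9.32 to 10.26 in NOD.Ln82-LCMV. The groups overlapped in this mean, and its part in the lower genes was not tested. Of 4 red cell genes 0 were higher and 2 lower, with the haem enzyme Alas2 at −1.09 ± 0.20. None of 11 skeletal muscle genes was called in limma (2 had an unadjusted p under 0.05, both lower, and 1 was called without NOD.Ln82-LCMV gp33 replicate 2 or control replicate 4). Myl1, a myosin light chain, reached 8.64 on NOD.Ln82-LCMV gp33 replicate 1, against 6.54 to 7.49 on the other 4 and 6.02 to 6.28 in NOD.LCMV.

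Stress lists had small median differences. Of 12 glucocorticoid targets and metallothioneins, 4 were higher and 1 lower, with a median of 0.05 (2 higher and 0 lower without NOD.LCMV gp33 replicate 2, and 3 lower without replicate 1). The clock gene Per1 was 0.93 ± 0.09 higher and Sgk1 0.19 ± 0.04, while Tsc22d3 (0.03 ± 0.11) and Fkbp5 (−0.11 ± 0.11) were not called. Of 10 heat shock chaperones 2 were higher and 2 lower, with Hspa5, the endoplasmic reticulum chaperone, 0.34 ± 0.06 higher. Leaving out NOD.LCMV gp33 replicate 2 left 0 of them lower, and leaving out any of 4 other gp33 arrays left 1.

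**Figure D3:**
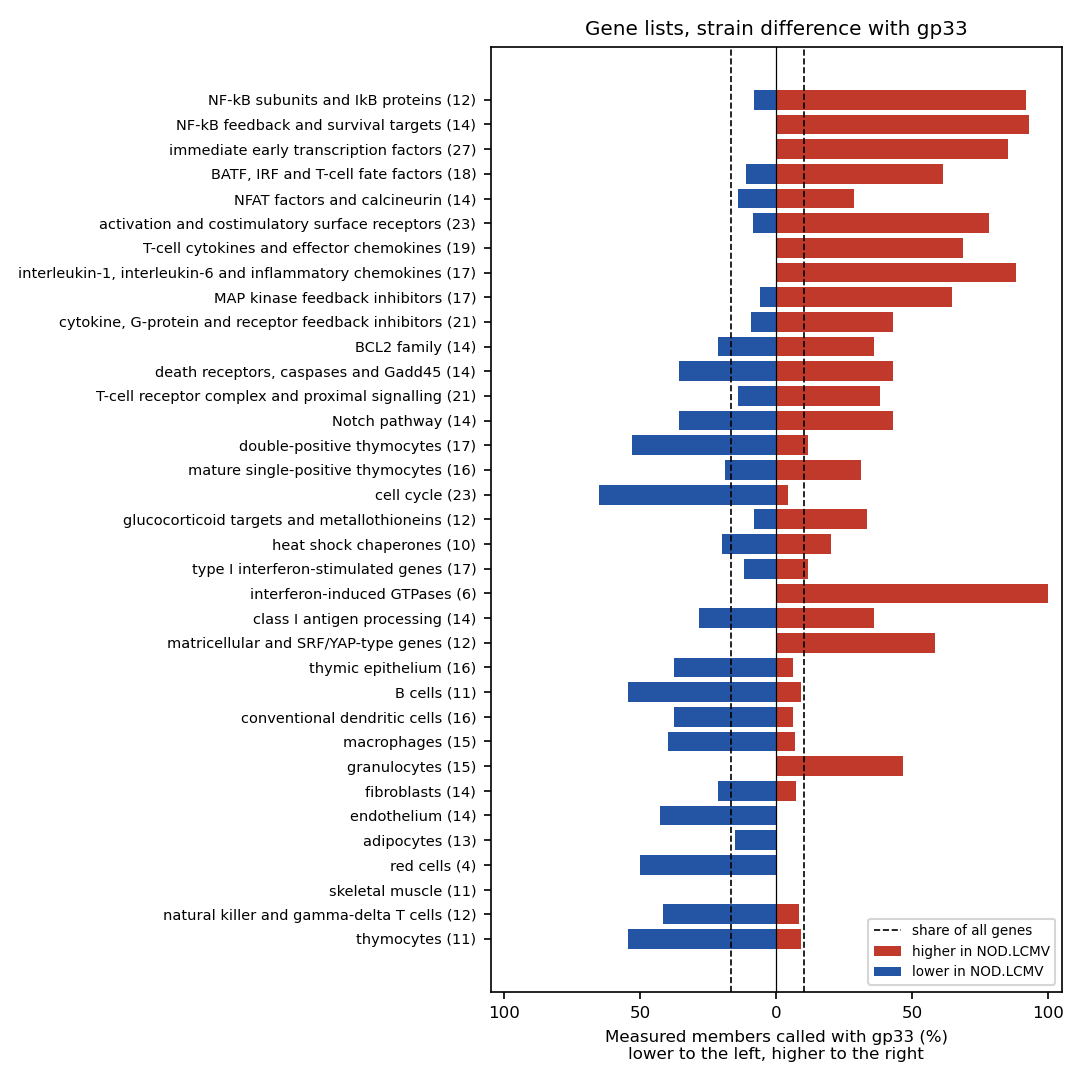
Share of measured members of each list (number in brackets) called higher (red, to the right) or lower (blue, to the left) with gp33, in percent; dashed lines mark the shares over all genes, 10.2% higher and 16.8% lower. NF-κB, immediate early, inflammatory and interferon-induced GTPase lists reach far to the right, and cell cycle, thymocyte and B-cell lists to the left.

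Most of the large higher differences were not called with the control peptide, and most of the large lower ones were. Of the 165 genes at least 2-fold higher with gp33, 16 (9.7%) were also called higher with the control peptide and 10 were called lower. The strain differences under the 2 peptides differed by limma's test in 158 of them (95.8%; 4.46% of all genes, higher). The genes were chosen by their gp33 difference, which is part of that test, so this share is a description. Without NOD.Ln82-LCMV control replicate 1 these numbers were 26, 23 and 158. Of the 42 genes at least 2-fold lower, 28 (66.7%) were also called lower with the control peptide, and 9 (21.4%; 4.26% of all genes) had a difference that was lower with gp33 by the same test, or 29 and 8 without that array. Over all sizes, 399 genes were called higher with both peptides, which is 19.6% of the gp33 calls and 41.9% of the control calls. For lower genes it was 838, or 25% and 75.8%. Without that array the counts were 565 (26.6% and 41.9%) and 994 (28.8% and 72.5%).

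A few genes changed side. Ccl3 was 2.78 higher in NOD.LCMV with gp33 and −1.16 with the control peptide (−1.57 without NOD.Ln82-LCMV control replicate 1). The like pairs were 2.10 and −0.74 (−0.97) for Cxcl10, 1.69 and −0.71 (−0.96) for Tnfrsf9, 1.30 and −0.61 (−0.72) for Rgs1, a G-protein regulator, and 1.03 and −0.35 (−0.43) for Ccl22, with the values without that array in brackets. In all, 57 genes were called higher with gp33 and lower with the control peptide (104 without that array), and 38 the other way round (83). S1pr1, with −0.36 and 0.29, was in the second set, together with Card6, a gene of the caspase recruitment domain family, with −0.47 and 0.67, whose gp33 call was lost in 5 leave-one-out fits.

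**Figure D4:**
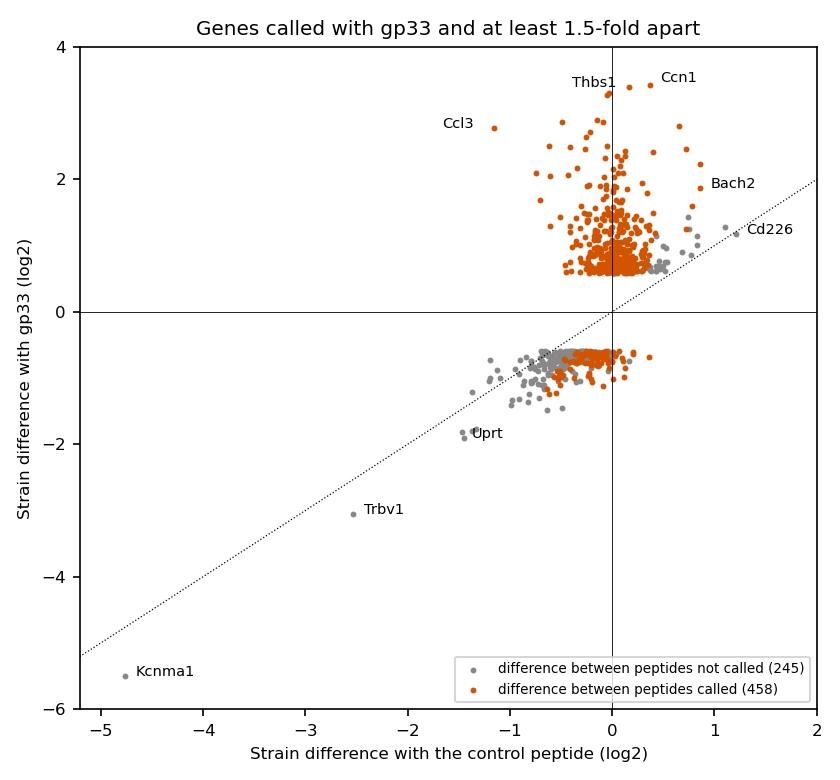
Strain difference with the control peptide (x, log2) against that with gp33 (y, log2) for the 703 genes called with gp33 and at least 1.5-fold apart; the dotted line marks equal differences, and orange points are the 458 genes whose 2 differences differ by limma's test. Higher genes stand in a column around 0 on the x axis, while many lower genes, with Kcnma1 and Trbv1 at the far end, lie near the line.

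Genes higher with both peptides were fewer and smaller. Cd226 was at 9.77, 9.23 and 9.79 against 8.34 to 8.61 with gp33 (1.17 ± 0.28) and differed by 1.21 with the control peptide, or 1.61 without NOD.Ln82-LCMV control replicate 1. Bach2, a repressor that keeps T cells from effector fates, was at 10.79, 10.70 and 10.61 against 8.59 to 9.07 (1.87 ± 0.16), with 0.86 under the control peptide (1.07 without that array). The other 4 by the rule were Tbrg3 (1.01 and 0.83), Phxr4 (1.25 and 0.75), the phosphatase Inpp4b (0.58 and 0.70, its gp33 call lost without NOD.LCMV gp33 replicate 1) and the POU factor Pou5f2 (0.57 and 0.60). On every gp33 array of NOD.LCMV all 6 were above the NOD.Ln82-LCMV arrays.

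The largest difference of a single probe set was in the lower direction. Kcnma1, the pore of the large-conductance calcium-activated potassium channel on chromosome 14, was at 7.33, 6.54 and 6.80 in NOD.LCMV and at 12.57, 12.30, 12.49, 12.52 and 12.06 in NOD.Ln82-LCMV. The groups were apart by more than 4 log2 units. The difference was −5.50 ± 0.36 (limma adjusted p = 3.78e-08). Its mean in NOD.LCMV, 6.89, is under the limit of the dimmest genes, so the fitted 45.2-fold may be understated. The gene has a second probe set, dimmer on average, which differed by −0.10 and was not called, so the difference belongs to what 1 probe set reads. With the first probe set the difference was −4.76 with the control peptide (−5.23 without NOD.Ln82-LCMV control replicate 1). The variable segment Trbv1, which the rule leaves out of the ranked genes, was at 10.31, 8.70 and 9.50 against 12.54 to 12.60 (−3.06 ± 0.52; control peptide −2.53, or −3.18 without that array).

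The next were Prxl2a, a peroxiredoxin-like gene also on chromosome 14, at 7.97, 8.23 and 8.29 against 9.34 to 10.46 (−1.90 ± 0.35), and Uprt on chromosome X, related to uracil phosphoribosyltransferases, at 8.83, 8.52 and 8.84 against 10.39 to 10.65 (−1.81 ± 0.17). Ly6d, a surface protein of B-cell precursors and epithelium, was at 9.40, 9.27 and 9.52 against 10.60 to 11.64 (−1.80 ± 0.25), and Ly96, the MD-2 partner of TLR4, at 7.31, 6.81 and 7.35 against 8.67 to 9.15 (−1.77 ± 0.17). With gp33 the groups were apart in these 4. With the control peptide they differed by −1.45, −1.47, −1.37 and −1.33, and the groups of Prxl2a overlapped there. The other probe set of Uprt differed by −1.30 with gp33. The enzymes Acot2, a mitochondrial thioesterase (−1.41 ± 0.13), and Cyb5r3, a cytochrome b5 reductase (−1.32 ± 0.12), the Wnt antagonist Sfrp1 (−1.36 ± 0.15) and the proton pump subunit Atp6v0d2 (−1.24 ± 0.19) were lower with both peptides, as was Wfdc17 (−1.04 and −1.20). None of the 12 lower genes of the rule except Cd79a, Cd79b and Ms4a1 belonged to a list.

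**Figure D5:**
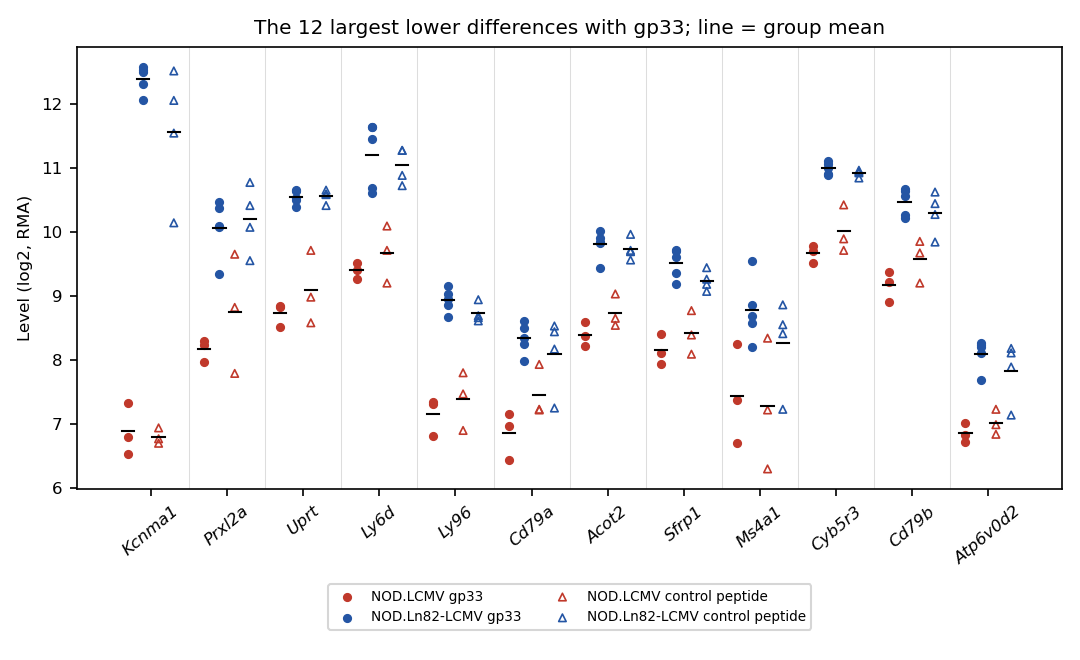
Log2 level of the 12 lowest genes by the rule, 1 point per array, filled circles with gp33 and open triangles with the control peptide, NOD.LCMV in red and NOD.Ln82-LCMV in blue; short lines are group means. The strains are apart with either peptide in Kcnma1 and Uprt, while the Ms4a1 groups overlap.

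Chromosome 7, which carries Nfkbid, had the lowest share of calls with gp33 among the chromosomes compared. Of its 1734 genes 372 (21.5%, against 27.0% of all genes) were called, 128 higher and 244 lower, and with the control peptide 171 (9.86%). Its 8 largest called genes by the rule included Adm, the vasodilator adrenomedullin, at 9.43, 9.75 and 9.67 against 7.48 to 7.76 (2.03 ± 0.10), Furin, a proprotein convertase (1.28 ± 0.05), and Fosb, Plaur, Relb, Bcl3 and Cd79a named above. None of the 7 higher ones among these 8 was called with the control peptide.

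Probe sets of microRNA genes leaned the same way as the large differences. Of 300 measured, 63 (21.0%) were called higher and 3 (1.0%) lower, against 10.2% and 16.8% of all genes, and 12 were at least 2-fold higher. The rule leaves small RNA genes out, so these were named after their values had been seen, and whether a probe set reads the precursor or the mature RNA was not tested. Mature sequences of 9 arms (RefSeq, GRCm38.p6) are shown with the seed, bases 2 to 8, in capitals, because several of the genes share a seed.
miR-155-5p: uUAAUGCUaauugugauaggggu
miR-142a-3p: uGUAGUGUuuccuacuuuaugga
miR-181a-5p: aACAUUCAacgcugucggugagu
miR-181b-5p: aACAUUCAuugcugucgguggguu
miR-15b-5p: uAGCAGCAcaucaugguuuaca
miR-16-5p: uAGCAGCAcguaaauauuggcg
miR-19a-3p: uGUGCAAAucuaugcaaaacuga
miR-19b-3p: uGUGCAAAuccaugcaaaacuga
miR-18a-5p: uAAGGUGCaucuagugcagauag
Mir155, which activated lymphocytes express, was at 9.25, 8.85 and 8.86 against 6.34 to 6.93 (2.43 ± 0.11, limma adjusted p = 1.04e-09) and differed by 0.13 with the control peptide. Mir142, a gene of blood cells, was at 9.45, 9.11 and 8.53 against 6.14 to 6.39 (2.80 ± 0.28), and differed by 0.65 with the control peptide (0.98 and called, limma adjusted p = 0.00572, without NOD.Ln82-LCMV control replicate 1). The groups were apart in both. Mir181a-1, whose product sets receptor sensitivity in thymocytes, was at 8.73 to 9.11 against 5.96 to 6.83 (2.46 ± 0.26; control peptide 0.72, or 0.88 and called without that array). Mir181b-1, with the same seed, was 1.60 ± 0.14 higher, and it was also called higher with the control peptide (0.78, or 0.86 without that array). Mir15b (2.24 ± 0.19) and Mir16-2 (1.25 ± 0.07) share a seed and lie together on chromosome 3. They were also higher with the control peptide, by 0.86 and 0.72 (1.03 and 0.76 without that array). Mir18 (2.09 ± 0.15), Mir19a (1.95 ± 0.12) and Mir19b-1 (1.47 ± 0.11), all on chromosome 14, differed by 0.06, 0.29 and 0.15 with the control peptide and were not called there.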

How the data were processed

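Whole-thymus RNA of 15 mice was read on 15 mouse gene arrays, 250 ng of RNA each. Per the submitters' processing notes, the authors normalized the arrays with RMA in Affymetrix Expression Console 1.1 and deposited log2 values of 35556 probe sets. Of these 21789 have 1 gene symbol, 1621 several and 12146 none, and the probe set with the highest mean stood for each of 19938 genes. No column lacked a sample. Array medians lay between 7.59 and 7.67 and were higher in NOD.LCMV. With the control peptide they were 7.66 to 7.67 in NOD.LCMV against 7.59 to 7.62 in NOD.Ln82-LCMV. With gp33 they were 7.63 to 7.64 against 7.59 to 7.63.

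All 15 arrays were fitted as 4 group means in limma 3.58.1 (R 4.3.3; 11 residual and 14.9 total degrees of freedom), with Benjamini-Hochberg adjustment over all genes and calls at an adjusted p under 0.05. Data of 19938 genes were also simulated, all with the same normal spread, the median of the real genes. There the gp33 comparison recovered 97 of 100 genes changed 1.25-fold and 100 of 100 changed 1.5-fold, with 10 false calls. Real genes differ in spread, so these counts may not hold for them.

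Named genes were Nfkbid, the 12 highest and 12 lowest called genes, up to 3 genes of each list by adjusted p, up to 8 called genes of chromosome 7, and up to 6 genes each way called with both peptides. The rankings skipped predicted and small RNA genes, antigen receptor segments, and receptors of the olfactory and vomeronasal families. The members, lists and rule were chosen with earlier results of these data known. The 35 lists held 524 measured members of 568 written, and the others were not analysed here. Promoter windows, microRNA sequences and their coordinates are RefSeq's (GRCm38.p6). The build of the array annotation is not given in the sources used here, so none of its coordinates are printed. Alternatives were another normalization, probe set rule, filter on dim genes, variance model, array weights, fold limit, sample set, replicate block and leaving out each array.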

Additional observations from a re-analysis of the deposited data

Results flagged for a closer look

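The strain difference depended on the peptide, by limma's test of the difference itself with Benjamini-Hochberg adjustment, in 1740 of 19938 genes, 115 of them named here. The values are the log2 strain difference with gp33 minus that with the control peptide, NOD.LCMV minus NOD.Ln82-LCMV in each. Without NOD.Ln82-LCMV control replicate 1, 0 of the 115 lost this call and each value was 0.80 to 1.17 times as large. Among NF-κB and its targets they were Nfkbid (1.71), Rel (1.39), Relb (1.39), Rela (0.36), Nfkb2 (1.46), Bcl3 (1.47), Nfkbia (0.95), Nfkbib (0.63), Nfkbie (0.89), Nfkbiz (0.87), Tnfaip2 (2.02), Tnfaip3 (1.57), Icam1 (1.44), Birc3 (1.09) and Traf1 (0.84). For immediate early and fate factors they were Atf3 (3.33), Nr4a1 (1.94), Nr4a2 (2.90), Nr4a3 (3.13), Egr2 (1.11), Fos (1.84), Fosb (1.27), Fosl2 (1.84), Jun (1.80), Myc (1.28), Irf1 (1.63), Irf4 (3.05), Tbx21 (2.95), Batf (1.76), Prdm1 (1.02), Bach2 (1.00) and Nfatc1 (0.87). Among surface receptors and feedback inhibitors they were Cd69 (1.51), Cd44 (1.21), Cd274 (1.32), Il2ra (1.60), Tnfrsf9 (2.40), Tagap (2.50), Crtam (2.01), Cd6 (0.46), Spry1 (2.40), Errfi1 (1.59), Dusp2 (1.1), Cish (1.80), Socs3 (1.35), Rgs1 (1.92) and Rgs16 (1.74). For cytokines, chemokines, granulocyte markers and some other genes they were Xcl1 (3.36), Ccl2 (2.21), Ccl3 (3.94), Ccl4 (1.89), Ccl22 (1.38), Cxcl9 (2.73), Cxcl10 (2.84), Cxcl11 (1.65), Ifng (2.30), Tnf (2.22), Il1a (2.90), Il1b (3.34), Il2 (0.39), Il6 (2.54), Acod1 (2.11), Clec4e (2.12), Ptgs2 (2.14), F3 (2.15), Retnlg (1.45), Mmp8 (1.28), Csf3r (0.94), Cxcr2 (0.77), S100a9 (0.96) and Gzmb (1.91). Among interferon, death and cell cycle genes they were Gbp3 (1.38), Gbp5 (2.95), Iigp1 (1.5), Tap1 (0.40), Bcl2l1 (0.71), Bcl2l11 (1.29), Gadd45b (2.66), Gadd45g (1.28), Tnfrsf10b (0.78) and Ccnd2 (1.19). For the remaining protein genes they were Ccn1 (3.05), Thbs1 (3.24), Plaur (1.37), Adm (2.01), Furin (1.13), Per1 (0.86), Hspa5 (0.38) and Pou2af1 (0.82). Among microRNA genes they were Mir142 (2.15), Mir155 (2.30), Mir15b (1.38), Mir16-2 (0.53), Mir18 (2.03), Mir181a-1 (1.74), Mir181b-1 (0.82), Mir19a (1.66) and Mir19b-1 (1.32). The genes lower with gp33 relative to the control peptide were Card6 (−1.14), Casp6 (−0.42), Cd7 (−1.11), Cd8a (−0.40), Clec9a (−0.50), Dll4 (−0.60), Dusp7 (−0.29), Foxn1 (−0.52), Hey1 (−1.03), Mertk (−0.63), Pdgfrb (−0.54), Pecam1 (−0.50), Psmb11 (−0.75), S1pr1 (−0.65), Thy1 (−0.35), Tlr3 (−0.55) and Xcr1 (−0.59).

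A single array lay far from the others in 21 of 402 pairs of a gene and a NOD.Ln82-LCMV group (5.2%), by Dixon's critical values. Chance gives about 5.0%. The NOD.LCMV groups, with 3 arrays each, were not tested for such arrays. Values are log2 levels. NOD.Ln82-LCMV control replicate 1 accounted for 11 of the 21. It was high in Bach2 (9.58 against 8.72 to 8.83), Cd226 (10.10 against 8.41 to 8.64), Cd28 (12.26 against 12.02 to 12.04), Fyn (11.32 against 10.89 to 10.96) and Inpp4b (10.71 against 9.83 to 9.93). It was low in Cd274 (10.25 against 10.38 to 10.39), Socs2 (8.76 against 9.20 to 9.21), Tagap (8.69 against 9.59 to 9.66), Tnfrsf9 (8.30 against 9.20 to 9.37), Trbv1 (10.00 against 12.54 to 12.66) and Xcl1 (7.19 against 8.31 to 8.34). NOD.Ln82-LCMV control replicate 4 stood apart in Nlrc5 (10.87 against 10.61 to 10.64). NOD.Ln82-LCMV gp33 replicate 1 stood apart in Gbp5 (8.02 against 7.71 to 7.78). NOD.Ln82-LCMV gp33 replicate 4 stood apart in Mcm6 (11.54 against 11.44 to 11.46) and Mpo (7.34 against 7.0 to 7.09). NOD.Ln82-LCMV gp33 replicate 5 stood apart in Atp6v0d2 (7.69 against 8.11 to 8.26), Gadd45g (7.72 against 7.43 to 7.50), Mertk (8.56 against 8.86 to 8.96), Mir15b (5.53 against 6.11 to 6.28), Nlrc5 (10.94 against 10.68 to 10.75) and Tsc22d3 (8.52 against 8.69 to 8.74).

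Probe sets with no single gene symbol were left out of the gene comparison. Of 13767 such probe sets, 2325 (16.9%) were called with gp33, 1545 higher and 780 lower, and 1521 (11%) with the control peptide. Their genes are unnamed here.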

How the results depend on the processing

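Of 124 called named genes, none reversed and all kept their gp33 call under every alternative other than a fold limit and leaving out arrays (118 were tested without the dimmest genes). Tested against a limit of 1.5-fold, 60 kept it. That limit left 225 genes with gp33 (191 higher, 34 lower), 1 with the control peptide (0 higher, 1 lower) and 128 whose strain difference depended on the peptide (128 higher, 0 lower). Array weights gave 4350 calls with the control peptide (2304 higher, 2046 lower) and 3175 for the difference between peptides (1903 lower). Median centring gave 384 higher and 2132 lower with the control peptide and 523 lower for the difference, and it moved the share of higher calls from 37.7% to 27.7% with gp33, from 46.3% to 15.3% with the control peptide and from 51.1% to 65.5% for the difference. Fitting only the groups compared gave 571 higher with the control peptide. The cause was not tested.

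Leaving out 1 array gave 4228 to 5641 calls with gp33 (1691 to 2135 higher, 2537 to 3506 lower), 1049 to 2721 with the control peptide (463 to 1350 higher, 586 to 1371 lower) and 1207 to 1954 for the difference (735 to 938 higher, 472 to 1016 lower). Control peptide counts fell by over 1.5 times without NOD.Ln82-LCMV control replicate 3 (1188) or NOD.LCMV control replicates 2 (1310) or 3 (1049). The lower counts of the difference did so without NOD.Ln82-LCMV control replicate 3 (562) or NOD.LCMV control 1 (562), control 2 (501) or gp33 2 (472). Cebpd, Hspb1, Krt5, Lum, Pdgfra, Pparg, Ms4a1 and Inpp4b, and outside the rule Bmf, Cd8a, Ikbkg, Nfatc3, Zbtb7b and Card6, lost their gp33 call without at least 1 array. Replicate numbers are shared between peptides in NOD.Ln82-LCMV only, and deviations of same-numbered arrays correlated at 0.117, 0.008, −0.050 and −0.226. A random replicate block gave 2025 higher and 3341 lower with gp33, 953 and 1115 with the control peptide and 843 and 735 for the difference. Small differences between dim genes are limited by signal over background, which the deposited values do not give.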
